A study of Homo sapiens with 8 samples.

Results

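The array described here measured gene expression in 786-O cells after transfection of miR-532-3p, a mature microRNA (miRNA), against mock RNA of the same line. It was chosen by its label and is 1 of 8 two-colour Agilent arrays in the series. 786-O is an established line of clear cell renal cancer that lacks a working VHL protein. The culture given miR-532-3p with Lipofectamine RNAiMAX was read in the Cy5 channel. The mock, which the labels also record as without transfection, was read in the Cy3 channel. The labels give no time point, dose or control oligonucleotide, so whether the mock cells received the transfection reagent or an inert RNA is not known. The other arrays held miR-532-5p in 786-O, which serves here side by side, and 6 arrays of other lines, which serve as a background of the dyes: PC3 prostate cancer cells treated with the small molecule bisamide for 24 or 48 h or transfected with miR-125b-1-3p, C4-2 prostate cancer cells with miR-199-3p, and T24 bladder cancer cells with either miR-140-5p or miR-140-3p. There was 1 array for each treatment, always with the treated RNA in Cy5. No test was therefore possible, and every value below describes this pair of RNA samples.

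A miRNA is cut from a hairpin in the RNA of its host gene, which for miR-532 is CLCN5, a chloride transporter of the kidney. The hairpin can give a mature strand from each arm, named 5p and 3p. A mature strand is loaded into an Argonaute protein and guides it to transcripts, mainly by pairing of its seed, the bases from the second to the eighth, with sites that lie mostly in 3′ untranslated regions. Pairing with the seed usually lowers the amount of the transcript modestly, through removal of its poly(A) tail and decay. A gene lower on an array of transfected cells may be bound directly or may follow from another change, and an expression array does not separate these.

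The strands of the miR-532 hairpin are shown because their seeds differ, so that they would pair with different sites. The miR-532-3p strand lies at chrX:50003204-50003225 and the miR-532-5p strand at chrX:50003167-50003188, both on the plus strand of GRCh38.p14, as RefSeq gives them. They are written 5′ to 3′ with the seed in capitals.
hsa-miR-532-3p: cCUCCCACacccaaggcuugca
hsa-miR-532-5p: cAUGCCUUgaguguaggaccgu
A transcript pairs with the whole miR-532-3p seed where it reads GTGGGAG in DNA letters. The array holds a probe of 60 bases for a stretch of each transcript, and the probes were searched for these letters. The following stretches come from 6 of the 11 measured probes that held the match and had a log2 ratio below −0.5, with the match in capitals. They show where the match lay in low transcripts, for the lowest of these probes except that of KCTD9, whose stretch is not printed.
MET: tgtctggacagattGTGGGAGta
POLR2H: ctgtgaaagacacaGTGGGAGag
PYCR1: ccctgcctgtGTGGGAGgg
SOD2: ttgatgtGTGGGAGca
CIRBP: tgtgtttaaagattGTGGGAGct
MRFAP1: aaccggagcaagctGTGGGAGat
The probes lie on GRCh37 at chr7:116438290-116438349 (MET, plus strand), chr3:184086244-184086303 (POLR2H, plus), chr17:79890331-79890390 (PYCR1, minus), chr6:160103590-160103649 (SOD2, minus), chr19:1272456-1272515 (CIRBP, plus) and chr4:6642733-6642792 (MRFAP1, plus). Whether a stretch lies in a coding or an untranslated region was not analysed here.

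Of 43317 genes on the array, 15442 were well above background in both channels and are called measured below. No spot was saturated. The median spot intensity was 23.0 in Cy3 and 18.7 in Cy5, against 22.7 to 24.9 and 18.7 to 23.1 over the 8 arrays. Ratios below are log2 of Cy5 over Cy3 after background correction and normalization, and intensities are mean spot values on a linear scale, as deposited. On probes spotted 10 times, the median SD of the log2 ratio within the array was 0.0475 (300 probes). Different probes of a gene differed by a median SD of 0.0901 (3244 genes). The mock intensities of the 786-O arrays differed by an SD of 0.0991 on the log2 scale over 15183 genes. The labels do not say whether these arrays shared 1 mock extract. The spreads within the array cover the measurement alone, and none measures the variation between cultures given miR-532-3p.

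The mock RNA carried the genes of a renal line. All 8 renal markers read were well above background, among them LHX1, a kidney transcription factor, at an intensity of 545, NNMT, a methyltransferase abundant in renal cancer, at 1004, and CDH6, a kidney cadherin, at 164. CDH6 was at most 25.8 in the mock RNA of the other lines. Of the prostate markers, KLK2, KLK3 and TMPRSS2 were not well above background. None of 5 urothelial and none of 3 endothelial markers was. The leukocyte markers PTPRC and CD3E were just above background at 30.3 and 40.7.

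With miR-532-3p, 22 of 15442 measured genes (0.142%) were lower by more than 1.5 on the log2 scale and 1 (0.00648%) was higher by as much. At a difference of 1.0, 85 genes (0.55%) were lower and 14 (0.0907%) were higher. At 0.5 these counts were 592 (3.83%) and 264 (1.71%). Lower genes thus outnumbered higher genes at each size. Of all genes past 1.5, 95.7% were lower with loess normalization, but with plain median centring the share was 26.3%, with 5 lower and 14 higher genes. Loess sets the middle of the ratios to 0 at each intensity and median centring only over the whole array, which left the median of measured genes at 0.17. Every one of the 22 lower genes stayed below 0 under median centring and under each of the other 10 ways of processing.

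The 22 lower genes were bright in the mock, with a median Cy3 intensity of 635 against 70.4 for all measured genes. Their median Cy5 intensity was 228. The processing favours bright genes here. Background correction added an offset of 50, which shrinks the ratios of dim genes, and both channels had to be well above background. For 21 of the 22, the ratio lay below that of all 6 arrays of other lines, which held for 19.3% of all measured genes. The 22 were picked for their low ratios on this array, so the choice itself favours such a position. The exception was ACTL8, an actin-like gene of the testis, at 119 in the mock and 22.4 with miR-532-3p. Its log2 ratio was −1.54 here and between −1.96 and −1.15 in the other lines, so its value did not stand apart from arrays without miR-532-3p. The symbols of 2 of the 22 are probe names without a gene and are not described. Of the 85 genes lower by more than 1.0, 81 lay below all arrays of other lines, a position that their choice also favours.

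**Figure D1:**
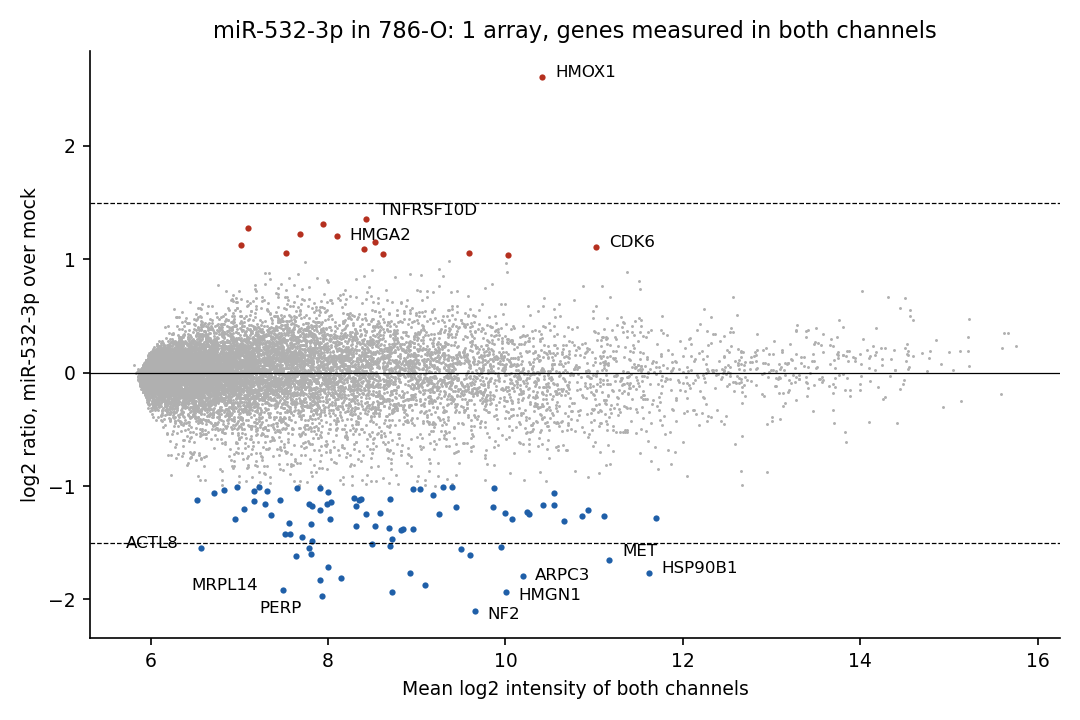
Log2 ratio of miR-532-3p over mock RNA in 786-O (vertical axis) against the mean log2 intensity of both channels after normalization (horizontal axis). Each point is 1 of 15442 measured genes on 1 array. Blue points are the 85 genes below −1.0, red points the 14 genes above 1.0, and dashed lines mark −1.5 and 1.5. HMOX1 stands alone above the upper line. The 85 lower genes had mock Cy3 intensities of 94.9 to 4585, against 25.6 to 36602 for all measured genes.

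NF2 had the lowest ratio. It encodes merlin, a membrane-cytoskeleton protein that restrains growth through the Hippo pathway and is lost in schwannoma, meningioma and some renal cancers. Its intensity was 1384 in the mock and 423 with miR-532-3p, at a log2 ratio of −2.10, which is 4.30-fold lower. The same probe (GRCh37 chr22:30094507-30094566, plus strand) read 1314 in the mock and 1295 with miR-532-5p, at 0.08. In the other lines its ratio was between −0.88 and 0.23. A second, dimmer NF2 probe read 49.3 and 28.0, at −0.47, so the probes gave the same direction and different sizes.

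PERP and HMGN1 followed. PERP, a protein of desmosomes that p53 induces, was at 398 in the mock and 101 with miR-532-3p, at −1.97. HMGN1, which binds nucleosomes and loosens chromatin, was at 1651 and 591, at −1.94. Its second probe was at −1.56. With miR-532-5p these ratios were −0.06 for PERP and −0.36 for HMGN1, both well above the values with miR-532-3p.

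CBX1 was measured by 3 probes that lay close together. It encodes HP1-beta, a reader of methylated histone H3 in heterochromatin. They gave −1.88, −1.81 and −1.62, with the brightest at 866 in the mock and 294 with miR-532-3p. On the miR-532-5p array the gene was at −0.97, so it was low with either strand. AKR1B10, an aldo-keto reductase, also had probes of like ratio, at −1.29 and −1.19. CDH2, which encodes N-cadherin, was at −1.02 and −0.97.

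For several other genes the probes lay further apart. SURF4, a cargo receptor of the endoplasmic reticulum, was at −1.83 on its bright probe and −0.48 on another. PTBP3, an RNA-binding regulator of splicing, was at −1.77 and −0.44. PTP4A1, a phosphatase anchored to membranes, was at −1.53, −0.62 and 0.02. The dimmest of these PTP4A1 probes read 30.9 and 29.3, close to background. POLR2H was likewise at −1.38 on a probe of 612 and −0.06 on one of 36.7. Which of the probes reads the main transcript was not tested.

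Of the 22 lowest genes, DDOST, SURF4, HSP90B1 and TMED3 act in the secretory pathway. DDOST, a subunit of the complex that attaches sugar chains to new proteins, was at 686 in the mock and 211 with miR-532-3p, at −1.93. SURF4 was at 371 and 106. HSP90B1, the chaperone GRP94 of the endoplasmic reticulum, was the brightest of the 22, at 4585 and 2109, with a ratio of −1.77 and of −0.96 on a second probe. TMED3, a carrier of proteins between endoplasmic reticulum and Golgi, was at −1.60, and at −1.06 with miR-532-5p. SPCS2, a subunit of signal peptidase just outside the 22, was at 306 and 115, a ratio of −1.49.

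Lists of the complexes that these genes belong to were written after their values had been seen, so the lists describe the neighbours only. Among 12 measured oligosaccharyltransferase subunits, DDOST and TUSC3 (−1.22) were below −0.5, a share of 16.7% against 3.83% of all genes. None was above 0.5, and the median was −0.0036. Among 5 signal peptidase subunits, SPCS2 and SEC11A (−0.51) were below −0.5 (40%), with a median of −0.33. Of 9 subunits of the Sec61 translocon and the TRAP complex, SEC61A1 (−1.01) and SEC61G (−0.53) were below −0.5 (22.2%). Of 15 cargo receptors, SURF4, TMED3 and TMED9 (−0.90) were below −0.5 (20%). TMED5 (0.85) and KDELR3 (0.58) were above 0.5 (13.3%, against 1.71% of all genes). Of 12 chaperones of the endoplasmic reticulum, HSP90B1, PDIA4 (−0.91), CANX (−0.81) and SDF2L1 (−0.52) were below −0.5 (33.3%). HSPA5, the chaperone BiP, was at −0.04, so the chaperones did not move as 1 group. The medians of the Sec61, cargo receptor, chaperone and oligosaccharyltransferase lists lay above that of all genes under median centring.

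ARPC3, KRT19 and SDC4 act on the cytoskeleton or at the cell surface. ARPC3, a subunit of the Arp2/3 complex that branches actin filaments, was at 1781 in the mock and 718 with miR-532-3p, at −1.79. ARPC5 of the same complex was at −1.25. Of 9 measured Arp2/3 genes, another list written afterwards, 4 (44.4%) were below −0.5, against 3.83% of all genes, and 8 were below 0. The list's median was −0.39 here and −0.05 with miR-532-5p. KRT19, a keratin of simple epithelia, was at −1.55, and at −0.67 with miR-532-5p. SDC4 and SDC1, syndecans that carry heparan sulfate, were at −1.51 and −0.93.

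MET, the receptor tyrosine kinase for hepatocyte growth factor, was the lowest gene whose probe held the seed match. Its intensity was 3269 in the mock and 1576 with miR-532-3p, at −1.65. On the miR-532-5p array the same probe read 3248 and 3082, at −0.02, and in the other lines its ratio was between −0.50 and −0.12. MAPKAPK3, a kinase of the p38 pathway, was at −1.61. MAP2K1, the kinase MEK1 below RAS and RAF, was at −1.12. Of 24 measured genes of RAS, MAPK and receptor tyrosine kinases, MET, MAP2K1 and PDGFRB (−0.75) were below −0.5 (12.5%, against 3.83% of all genes). IGF1R (0.70) and SPRY2 (0.50) were at the top, with 8.33% of the list above 0.5 against 1.71%. The list's median was −0.04, so MET and MAP2K1 did not stand for the list.

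The other genes past −1.5 had roles in protein synthesis, trafficking and small RNAs. MRPL14, of the large mitochondrial ribosomal subunit, was at 284 in the mock and 66.4 with miR-532-3p, at −1.92. Of 48 measured genes of that subunit, 4 (8.33%) were below −0.5, against 3.83% of all genes, and none above 0.5, with a median of −0.13. TARS, the threonyl-tRNA synthetase now named TARS1, was at −1.53. Of 20 cytosolic aminoacyl-tRNA synthetases, TARS and MARS (−0.64) were below −0.5 (10%) and the median was −0.10. AAGAB, which helps to assemble adaptor complexes of endocytosis, was at −1.54. SCARNA22, a small RNA of Cajal bodies, was at −1.81, but at 0.46 with miR-532-5p and up to 0.61 in the other lines.

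HMOX1 was the highest gene and the only gene above 1.5. It encodes heme oxygenase 1, which breaks heme into biliverdin, iron and carbon monoxide and is induced by oxidative stress. Its intensity was 428 in the mock and 4057 with miR-532-3p, at a log2 ratio of 2.60, which is 6.08-fold higher. It was higher on the miR-532-5p array as well, at 445 and 2942, with a ratio of 2.74. The 6 arrays of other lines, 4 of them also transfected with a miRNA, gave −0.30 to 0.67. A transfection of 786-O without either strand was not analysed here, so a change due to a strand cannot be told apart from one due to transfection in this line.

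The other 13 genes above 1.0 were led by TNFRSF10D, a decoy receptor for the death ligand TRAIL, at 1.36, with 158 in the mock and 592 with miR-532-3p. One array of another line reached 1.27 for this gene. CDKN1C, the cell cycle inhibitor p57, was at 1.31, and ANKRD46 was at 1.28. SEMA7A, a membrane-bound semaphorin, was at 1.22, and at 0.96 with miR-532-5p. HMGA2, a chromatin protein and known target of let-7, was at 1.21 here and 2.08 with miR-532-5p, but up to 1.49 in other lines, and its other probes were at 0.34 and 0.38. Of the 14 genes, 13 lay above all arrays of other lines, a share of 92.9% against 15.1% of measured genes, and HMGA2 was the exception. The 14 were picked for their high ratios on this array, which favours that position. Their median with miR-532-5p was 0.58.

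CDK6, the G1 cyclin-dependent kinase, was higher only on the miR-532-3p array of the pair. It read 1118 in the mock and 3740 with miR-532-3p, at 1.11, and 1178 and 890 with miR-532-5p, at −0.28. DDAH1, which degrades methylarginines, was at 1.15 and 1.04, though a dim second probe was at 0.02 with miR-532-3p. IL1RAP, the accessory chain of the interleukin-1 receptor, was at 1.13, with 0.32 on its second probe. SNAP25, a protein of vesicle fusion, was at 1.09, and between −0.02 and 0.09 in the other lines.

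**Figure D2:**
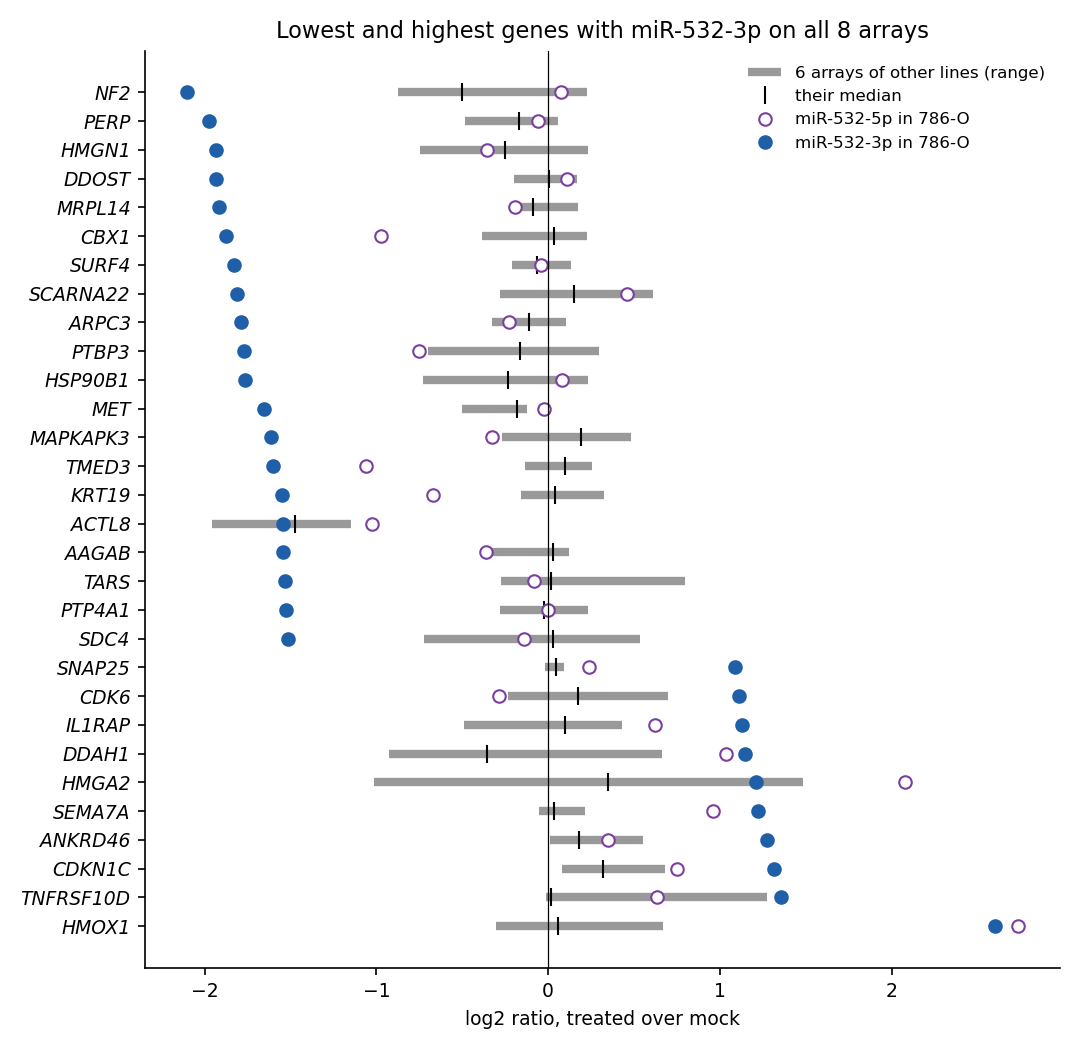
Log2 ratio of treated over mock RNA (horizontal axis) for the 20 named genes below −1.5 and the 10 highest genes with miR-532-3p. Filled blue points are miR-532-3p in 786-O and open points miR-532-5p in 786-O, each 1 array. Grey bars give the range and black ticks the median of the 6 arrays of other lines. Apart from ACTL8 and HMGA2, the blue points lie outside the grey bars, which the choice of genes by these points favours.

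The probes gave a view of the seed. The letters GTGGGAG stood in 239 of 58201 probes (0.411%), 81 of which were measured, each for a different gene. Their median log2 ratio was −0.11, with an interquartile range from −0.28 to −0.01, and 77.8% were below 0 against 50.3% of all 19546 measured probes. Of the 81, 11 were below −0.5, a share of 13.6% against 3.42% of all probes, and none was above 0.5, against 1.55%. The share below −0.5 moved with the processing: it was 22.2% against 6.14% without background correction, 40.7% against 14.1% with the scanner's ratio and 8.64% against 1.91% with median centring. With GTGGGAGA, the same match followed by an A, 18 probes had a median of −0.13. Probes that held only the 6-base match TGGGAG, 301 in all, had a median of −0.05 with 4.65% below −0.5. The 92 probes with the letters on the other strand, CTCCCAC, had a median of 0.06 and none below −0.5. Probes were read as the transcript strand: AATAAA, the signal for polyadenylation, stood in 7.85% of them and its reverse complement TTTATT in 3.6%.

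On each of the other 7 arrays the match was read over the probes measured there, 82 to 110 in number. Probes with GTGGGAG had medians between −0.02 and 0.0046, with 0% to 3.12% below −0.5. Probes with CTCCCAC had medians of 0.02 to 0.06 on those arrays, with 0% to 0.901% below −0.5. Their values here were thus not particular to the miR-532-3p array. In the other direction, matches to the seeds of the strands used on the other arrays (miR-532-5p, both arms of miR-140, miR-125b-1-3p, and miR-199a-3p for the label miR-199-3p) had medians from −0.03 to 0.02 with miR-532-3p. The 77 probes with the miR-199a-3p match nevertheless had 9.09% below −0.5. Probes with the miR-532-3p match had a mean GC content of 48.7%, against 44.0% for all probes, and those with the other strand 50.6%.

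**Figure D3:**
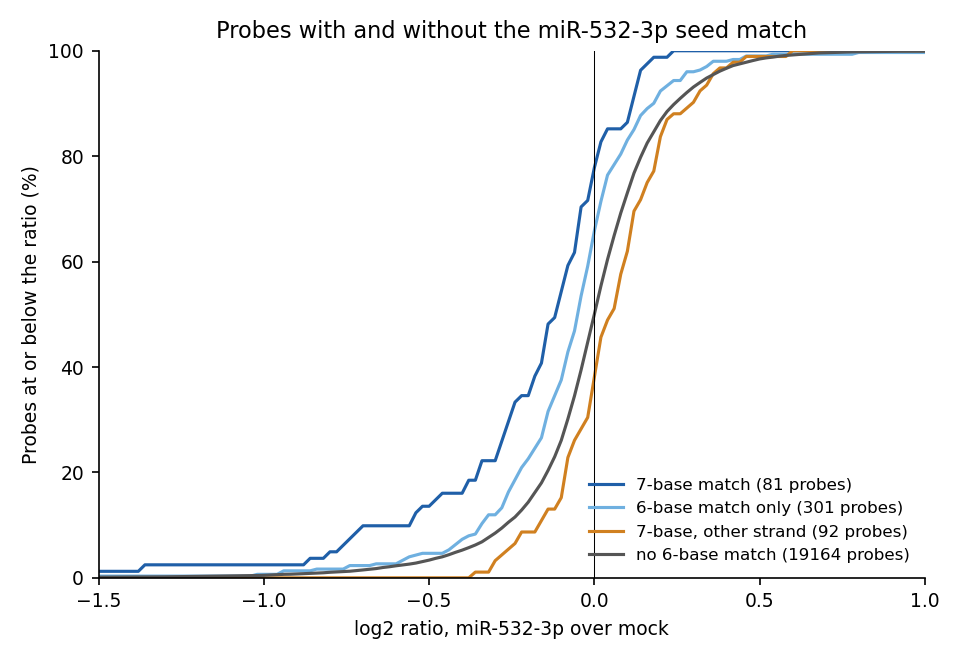
Cumulative share of measured probes in percent (vertical axis) by log2 ratio of miR-532-3p over mock (horizontal axis) on 1 array. Curves show 81 probes with the 7-base match, 301 with the 6-base match only, 92 with the 7-base letters on the other strand and 19164 without a 6-base match. The curve of the 7-base match lies to the left of the others, and that of the other strand to the right of the probes without a match at most ratios.

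Windows of 7 bases along the whole miRNA were compared in the same way, a choice made after the seed values had been seen. Probes matching bases 2 to 8 had 13.6% below −0.5, and those matching bases 3 to 9 had 14.5% of 138, with a median of −0.08. These windows share 6 letters, so some probes stand in both. Bases 4 to 10 gave 6.36% and bases 8 to 14 gave 11.4% of 70 probes. The other windows read as the transcript gave 0% to 7.21%. On the other strand the last window, bases 16 to 22, gave 12.5% of 48 probes, so shares of this size also occurred outside the seed.

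**Figure D4:**
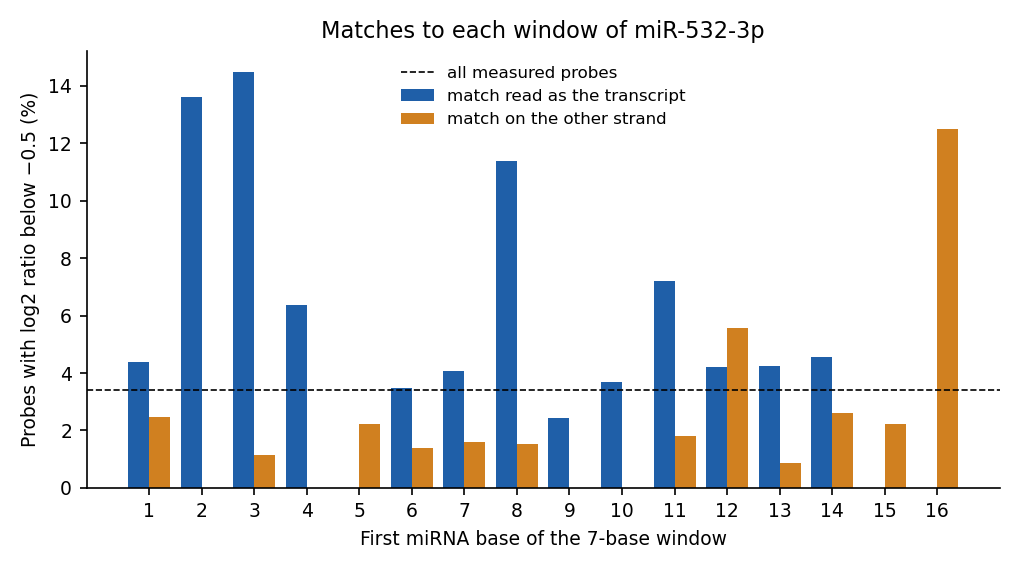
Share of measured probes with a log2 ratio below −0.5, in percent (vertical axis, from 0), for matches to each 7-base window of miR-532-3p, by the first miRNA base of the window (horizontal axis). Blue bars are matches read as the transcript and orange bars matches on the other strand. The dashed line is the share of all measured probes, 3.42%. The blue bars of the windows from base 2 and base 3 are the tallest, at 13.6% and 14.5%.

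Most of the low genes had no match in their probe. Of 95 probes below −1.0, 2 (2.11%) held GTGGGAG, as did 9 of 574 (1.57%) between −1.0 and −0.5, 70 of 18575 (0.377%) between −0.5 and 0.5, and none of 302 above 0.5. A probe covers 60 bases, and the rest of each transcript was not analysed here, so this says nothing of matches elsewhere. Among the lowest 22 genes, 1 (MET) had the match in its probe.

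The probe of POLR2H, a subunit shared by the nuclear RNA polymerases, read 612 in the mock and 292 with miR-532-3p, at −1.38. PYCR1, an enzyme of proline synthesis in mitochondria, read 1907 and 1557, at −0.86. SOD2, the mitochondrial superoxide dismutase, read 1013 and 801, at −0.82. CIRBP, a cold-induced RNA-binding protein, read 148 and 92.5, at −0.74. The probe of MRFAP1 read 453 and 349, at −0.74. KCTD9 was at −0.78 and C6orf203, now named MTRES1, at −0.70. FBXO22, RPLP0 and PPP1R14C were at −0.55, −0.55 and −0.54. All 11 genes were below 0 with miR-532-5p as well on these probes, from −0.55 for SOD2 to −0.02 for CIRBP. With miR-532-3p, other probes were at −0.65 and −0.43 for KCTD9, −0.63 for MRFAP1 and −0.43 for RPLP0. Dim other probes were at −0.12 for PYCR1 (31.3 in the mock), −0.06 for POLR2H (36.7) and −0.03 for CIRBP (36.5).

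CLCN5, the host gene, was near background, at 33.1 in the mock, and 1.03-fold higher with miR-532-3p, a log2 ratio of 0.04. PIR, which encodes the iron-binding protein pirin, was at −0.49 and inside the range of the other lines, −0.73 to 0.66.

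Lists of pathway genes were read next. Of 28 measured genes of the NRF2 pathway and heme breakdown, 8 (28.6%) were below −0.5, against 3.83% of all genes. HMOX1 alone was above 0.5. The 14 reference genes described below had the same share below −0.5, so it was not particular to this list. The NRF2 list's median was −0.21, against −0.00011 for all measured genes and −0.0010 for the list with miR-532-5p. The low members were mostly antioxidant or metabolic enzymes: AKR1B10 at −1.29, the peroxiredoxin PRDX1 at −0.88 (within the −1.06 to 0.25 of the other lines), biliverdin reductase B (BLVRB) at −0.88, thioredoxin (TXN) at −0.87, transketolase (TKT) at −0.78 and transaldolase (TALDO1) at −0.61. SLC7A11, the cystine transporter, was at −0.71. NQO1 and GCLM, standard NRF2 targets, were at −0.21 and 0.05. The ferritin chains FTH1 and FTL were at 0.40 and 0.24. HMOX1 thus stood apart from the other members, most of which were below 0.

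Of 28 interferon-stimulated genes, 27 were below 0 and 6 (21.4%) below −0.5, against 3.83% of all genes, with none above 0.5 and a median of −0.17. ISG15, a ubiquitin-like modifier, was lowest at −1.18, with 1150 in the mock and 700 with miR-532-3p, but within the −1.28 to −0.05 of the other lines. IFI44, an antiviral protein, was at −0.995 and OASL, an antiviral sensor, at −0.96. IFIT5 alone was above 0, at 0.03. The list's median was −0.09 with miR-532-5p and ranged from −0.30 to 0.06 in the other lines, so the value here lay within that range.

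Of 20 S phase genes, 18 were below 0 and 3 (15%) below −0.5, against 3.83% of all genes, with none above 0.5 and a median of −0.32. The subunits of ribonucleotide reductase, RRM2 and RRM1, were lowest at −0.99 and −0.62, and CDT1, which licenses origins, was highest at 0.41. The other lines gave medians of −0.46 to 0.04 for this list, a range that holds the value here. Relative to all genes its median was −0.05 under median centring and 0.01 after subtraction of each gene's median over the other lines. The list was lower with miR-532-5p, at −0.72. The 20 genes of mitosis had a median of 0.05 with none past 0.5 in either direction, and −0.42 with miR-532-5p. Of 24 cyclins, cyclin-dependent kinases and their inhibitors, CDKN1C, CDK6, CCNE1 (0.58) and CDKN1B (0.55) were above 0.5 (16.7%, against 1.71% of all genes). RB1 (−0.55) was below −0.5 (4.17%, against 3.83%). These differences between the strands were not tested.

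In cell junctions, 4 of 17 measured genes (23.5%) were below −0.5, against 3.83% of all genes, and none was above 0.5, against 1.71%. The list's median was −0.13, within the −0.34 to 0.16 of the other lines. The 4 low genes were PERP, CDH2, the tight junction protein F11R (−0.82, within the range of the other lines) and CDH6 (−0.74). DSP and JUP, core parts of desmosomes, were at −0.10 and 0.03. Among 23 mesenchymal and matrix genes, with a median of 0.16, the integrin ITGB3 (−1.17) was below −0.5 (4.35%). The integrin ITGA5 (0.59), the laminin LAMC1 (0.56) and SPARC (0.54) were above 0.5 (13%). Other lines gave medians of −0.01 to 0.30 for this list.

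Of 26 death receptor and caspase genes, 4 (15.4%) were below −0.5, against 3.83% of all genes. Among them were TNFRSF1A, a receptor of tumour necrosis factor, at −0.92 and BAX, a pore-forming protein of mitochondria, at −0.59. A dim second BAX probe, at 39.9 in the mock, was at −0.03. The TRAIL receptors TNFRSF10D and TNFRSF10B (0.53) were above 0.5 (7.69%, against 1.71% of all genes), and TNFRSF10A was at 0.07. The list's median was −0.07, and above that of all genes under median centring. Of 26 p53 target genes, PERP, BAX and DDB2 (−0.50) were below −0.5 and TNFRSF10D, GADD45A (0.55) and TNFRSF10B above 0.5. CDKN1A and MDM2, leading p53 targets, were at 0.13 and 0.09.

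Of 23 genes of the Hippo pathway and targets of its effector YAP, NF2 alone was below −0.5 (4.35%, against 3.83% of all genes). Above 0.5 was CYR61 alone (4.35%, against 1.71%). CYR61, a secreted YAP target now named CCN1, was at 0.74. CTGF, another YAP target, was at 0.43, and ANKRD1, also one, at −0.05. The kinases STK4 and STK3 were at 0.45 and 0.30 and LATS2 at 0.08. A dimmer STK4 probe was at 0.07. The list's median was 0.03. Low NF2 was thus seen beside higher CYR61, but without a shift of the list.

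Among 26 genes of the HIF pathway and hypoxia, 4 (15.4%) were below −0.5, against 3.83% of all genes. None was above 0.5, against 1.71%, and the list's median was 0.0013. The 4 low genes were CA12, a carbonic anhydrase, at −1.34, NDRG1 at −0.85, and the glycolytic enzymes LDHA (−0.63) and ENO1 (−0.60). EPAS1, which encodes HIF2-alpha, was at 0.23 and VEGFA at −0.37. NDRG1 was at 1.04 with miR-532-5p, the opposite side.

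High mobility group proteins, with 10 genes measured, ran from HMGN1 at −1.94 to HMGA2 at 1.21, with a median of −0.23. HMGB3 was at −0.92, although its second probe was at 0.02, and at −1.20 with miR-532-5p. Chromobox genes, listed after their values were seen, had CBX1 and CBX6 (−0.98) below −0.5 among 8 (25%, against 3.83% of all genes). CBX3 and CBX5, which encode the other HP1 proteins, were at −0.32 and 0.43. In both families single members were low and others were not.

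Of 20 genes of the integrated stress and unfolded protein responses, 5 (25%) were below −0.5, against 3.83% of all genes. Above 0.5 were 2 (10%), against 1.71%. The list's median was −0.17, and above that of all genes under median centring. ATF4 and DDIT3, the leading factors, were at −0.33 and 0.01. Of 16 inflammatory cytokine genes, CXCL8 (0.88), ICAM1 (0.82), CXCL2 (0.69) and IL11 (0.57) were above 0.5 (25%) and CXCL5 (−0.76) below −0.5 (6.25%). CXCL8, the neutrophil attractant interleukin-8, was at most 0.07 in the other lines and −0.44 with miR-532-5p. Of 21 genes of miRNA processing and silencing, DICER1 (0.88) and DCP2 (0.78) were above 0.5 (9.52%) and DROSHA (−0.69) below −0.5 (4.76%). DICER1 and DROSHA, the nucleases that make miRNAs, were at 0.74 and −0.74 with miR-532-5p.

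The remaining planned lists held genes of steady use. None of 18 cytosolic ribosomal protein genes was past 0.5 on its brightest probe, with a median of 0.0060. RPLP0 was at −0.43 on that probe and at −0.55 on the dimmer probe with the seed match. Of 14 reference genes, 4 (28.6%) were below −0.5, against 3.83% of all genes. Among them were SDHA (−0.67) and B2M (−0.61), which stayed below the median of all genes under median centring. The further probes of SDHA lay between −0.89 and −0.65. GAPDH and ACTB were at −0.35 and −0.10. Lists written afterwards for RNA polymerase II subunits and for lysosomal membrane proteins and cathepsins had medians of 0.07 and −0.02. Of 12 measured polymerase subunits, POLR2H was below −0.5 (8.33%, against 3.83% of all genes). POLR2G (0.55) was above 0.5 (8.33%, against 1.71%). Of 12 measured lysosomal genes, CTSZ (−1.38) and CD63 (−1.28) were below −0.5 (16.7%) and none was above 0.5.

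Medians near 0 depended on the scaling. Set against all genes, the median changed sign under median centring, the scanner's ratio or subtraction of the other lines for the Hippo, HIF, RAS, mesenchymal, ribosomal protein, reference gene, stress, death receptor and S phase lists. Among the lists written afterwards it did so for the mitochondrial ribosome, tRNA synthetases, Sec61, cargo receptors, chaperones, oligosaccharyltransferase and lysosomal proteins. For the NRF2, interferon, junction, high mobility group, Arp2/3 and signal peptidase lists it stayed below that of all genes under each of these.

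**Figure D5:**
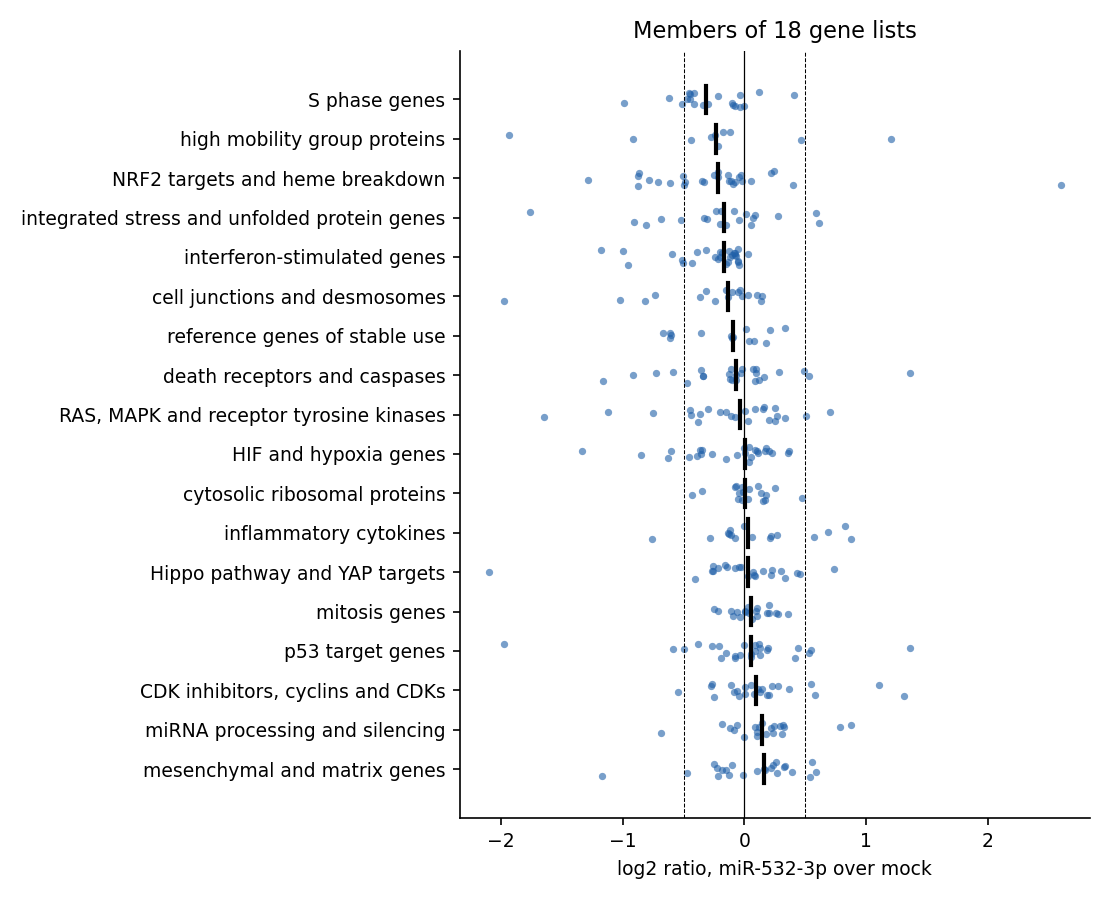
Log2 ratio of miR-532-3p over mock (horizontal axis) for the measured members of 18 gene lists (rows, ordered by median) on 1 array. Each point is a gene, black bars are medians and dashed lines mark −0.5 and 0.5. The S phase list has the lowest median, −0.32, and single genes such as NF2, PERP, HMGN1 and HMOX1 lie far from the rest of their lists.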

How the data were processed

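RNA of 8 treated cultures (Cy5) and of mock cells (Cy3) was hybridised to 8 arrays, 1 per group, and the treatment labels gave the groups. Spots were read by the authors, per the file headers, in version 11.5.1.1 of Agilent's Feature Extraction. The deposited intensity values used here are the means of spot pixels and the medians of the surrounding background. The deposited log10 ratio of Cy5 over Cy3 was made by the same software from background-subtracted, dye-normalized signals, and the deposited series table held the same log10 values, with a largest difference of 0. Coordinates of probes are those of GRCh37. RefSeq of GRCh38.p14 served for current symbols (11937 of 15442 measured genes matched) and for miRNAs.

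Intensities were corrected with normexp (offset 50) and loess within the array in limma 3.58.1 (R 4.3.3). The 146 outlier spots of the array were left out, spots of a probe were averaged, and each gene took its brightest probe over the 8 arrays. Genes well above background in 1 channel alone (259 in Cy3, 2262 in Cy5) were given bounds, none of which passed 1.0. The procedure was tested on simulated data. The size of 1.5 is that stated by the study. No p-value was computed, since precision is limited by the single array.

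Named genes were those past 1.5, the 10 lowest and 10 highest with a gene symbol, the 2 lowest and 2 highest members of each of 18 lists, PIR, HMOX1, NF2, CLCN5, all high mobility group and TNFRSF10 genes measured, and the 10 lowest genes with the 7-base match. Some genes that the rule names are not reported here. Further members of a list and the other probes of a gene were named after their values were seen. The array, the genes and the lists were chosen with earlier results of these data known, and 12 more lists were written after the values were seen. Alternatives were other background corrections, median centring, the scanner's ratio, the series table, ratios minus the median of other arrays, other filters, the mean over probes, a threshold of 1.0 and other seed matches.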

Additional observations from a re-analysis of the deposited data

Results flagged for a closer look

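PLEKHB2, a protein of recycling endosomes, was past 1.0 in opposite directions on the 786-O arrays. It was at 1.05 with miR-532-3p, with intensities of 422 in the mock and 1269 in transfected cells, and at −1.24 with miR-532-5p, with 447 and 147. The 6 arrays of other lines lay between −0.49 and 0.38. Each value is from 1 array, and the difference was not tested.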

How the results depend on the processing

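Counts of lower and higher genes past 1.5, 22 and 1 as reported, were 105 and 13 under normexp without an offset, 110 and 14 under plain subtraction, 45 and 4 without background correction, 5 and 14 with median centring, 149 and 20 with the scanner's own ratio and with the series table, and 85 and 14 at a threshold of 1.0. Minus the median of the 6 arrays of other lines they were 22 and 2. The median of probes with the seed match relative to all probes, −0.11 as reported, was −0.34 with an offset of 0 and −0.37 with subtraction, the scanner's ratio and the series table. It was −0.02 without a filter on dim probes, which brings in probes near background, and −0.13 over 8-base matches. The causes of the other shifts were not tested. Lists with a median below that of all genes numbered 9 of 18, and 6 to 11 under the alternatives. The 22 lower genes stayed below 0 in all 11 settings, and 5 of them stayed past −1.5 under median centring. None of the 38 genes past 1.0 that the naming rule gave changed sign under another scaling or background correction.

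No paired analysis was possible because there was 1 array per group. For the same reason no replicate was left out, and no value has an error between cultures. Dim genes are limited by signal over background: 15442 of 43317 genes were measured in both channels. Without a dye swap, dye effects that differ by gene remain in every ratio. The deposited labels do not tell a mock with reagent from untreated cells.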
